A study of Mus musculus with 6 samples.

Results

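Described here are the non-coding genes and pseudogenes of the neonatal mouse right ventricle (RV) that differed in read level between pulmonary artery banding (PAB) and sham surgery. The members are every gene of the deposited table whose gene biotype is given and is other than protein coding. This rule took 88 of 617 listed genes; 528 are protein coding and 1 has no biotype. PAB ties a band around the pulmonary artery so that the RV ejects against a raised pressure, and the sham pups had the operation with no band. Both groups were WT mice of the strain C57/BL6J, with surgery on postnatal day 1 and harvest of the RV on postnatal day 7. The labels give mouse as the organism, although their extraction note speaks of a rat, and the listed gene identifiers are those of mouse. RNA from 3 sham and 3 PAB samples was sequenced in bulk. It is not stated whether a library holds 1 animal, so the p-values measure the spread between these libraries.

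Long non-coding RNAs are transcribed and often spliced like messenger RNAs but carry no long reading frame, and annotation sorts them by position: lincRNAs lie between genes, antisense RNAs run across a gene on its other strand, sense intronic RNAs sit within an intron, and bidirectional promoter lncRNAs start back to back with a coding gene. Processed pseudogenes are copies of spliced messenger RNAs that were put back into the genome, and unprocessed ones come from duplicated DNA. In the heart, several loci of contractile and natriuretic peptide genes carry such transcripts, and the myosin heavy chain genes host microRNAs.

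Values are normalized reads, that is, reads per gene divided by 1 size factor per library (0.939 to 1.07). How the listed genes were chosen is not stated. Every one of them differed between the groups at the threshold used here, so they may have been picked on these same 6 libraries, and each count and p-value below is a description and no independent test. PAB and sham were compared with limma on log2(value + 1), which holds down the change of genes with low values. All 88 members passed the minimum mean of 0.1, the lowest mean being 8.56. With 3 libraries against 3, the smallest exact two-sided permutation p is 0.1. In bulk tissue, fewer cells of a type and less RNA per cell cannot be told apart.

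The non-coding members were mostly lower in PAB. At an adjusted p under 0.05 in limma, 67 members were lower and 21 higher in PAB, so that 76.1% were lower. Over all 617 listed genes, 53.0% were called lower and 47.0% higher, so that every listed gene was called. Among the 528 protein-coding genes, 259 were lower (49.1%) and 269 higher. The difference between the classes was not tested. The largest adjusted p among the members was 0.0341 (limma). The groups were fully separate in 84 members (95.5%), 65 of them lower and 19 higher, against 97.1% of all listed genes. The other 4 were E230013L22Rik, Gm10222, Mir208b and Gm15675, the last of them chosen after its values were seen. Scaling the libraries by their median ratio over the listed genes moved PAB relative to sham by 0.59 (log2). Under it 39 members were called lower and 21 higher (65.0% lower), beside 148 lower and 269 higher protein-coding genes (35.5% lower). This shift is smaller than the smallest absolute log2 fold change of a member, 0.99, so it could turn no member's direction.

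Under the deposited scaling, lower members outnumbered higher ones in most biotypes. Of 33 lincRNAs 26 were lower and 7 higher, of 21 antisense RNAs 17 were lower and 4 higher, and all 6 processed transcripts were lower. Of 6 TEC genes, which are transcribed regions whose coding status is still to be settled, 4 were lower. Bidirectional promoter lncRNAs were lower in 3 of 4. Pseudogenes were the most even of the larger classes, with 8 lower and 6 higher of 14. The single microRNA gene and the single mitochondrial tRNA were lower, and of the sense intronic pair 1 was lower and 1 higher. Under median-ratio scaling the calls were 17 lower and 7 higher in lincRNAs, 11 and 4 in antisense RNAs, 4 and 0 in processed transcripts, and 3 and 2 in TEC genes. Lower calls no longer outnumbered higher ones in others, with 1 lower and 1 higher bidirectional promoter lncRNA, 3 lower and 6 higher pseudogenes, and only the higher of the sense intronic pair. This scaling moved all members toward higher and turned no direction, so these counts show only which lower calls ended. Neither the microRNA gene nor the tRNA was called there.

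**Figure D1:**
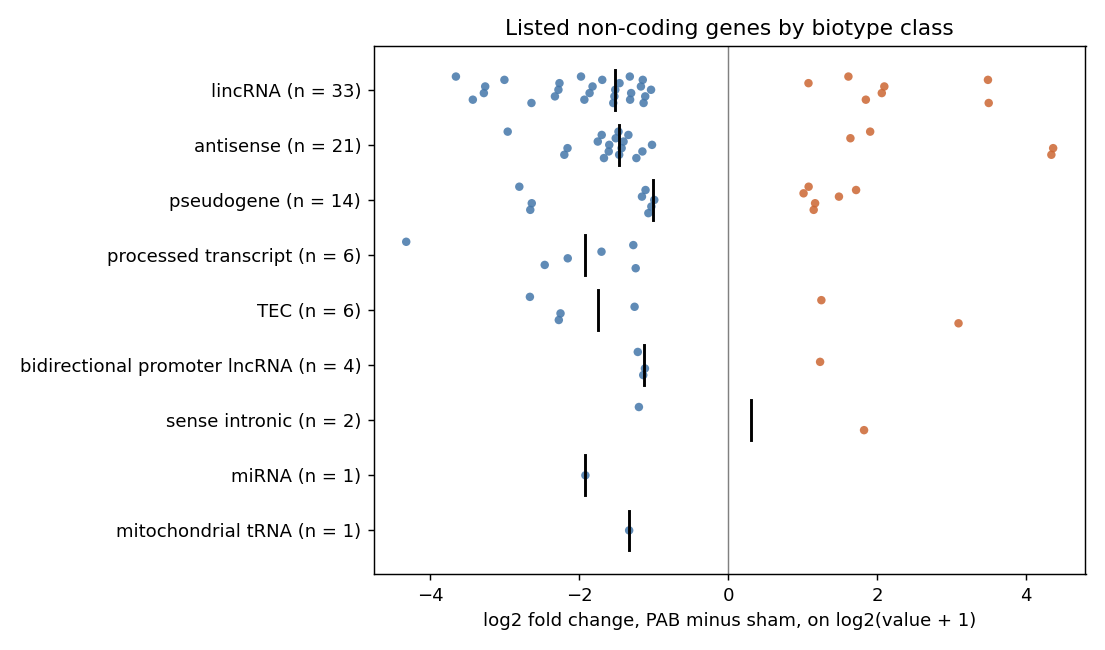
Each point is 1 non-coding gene, placed by its limma log2 fold change (PAB minus sham, on log2(value + 1)) on the x axis and by biotype class on the y axis; blue points are lower and orange points higher in PAB, black bars are class medians, and the vertical spread within a class has no meaning. Members run from -4.32 to 4.36, and lower points outnumber higher ones in every class of at least 4 members.

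Higher members had a median log2 fold change of 1.72 and lower members one of -1.54, against 1.45 and -1.42 among protein-coding genes. LincRNAs had medians of 2.06 in the 7 higher and -1.75 in the 26 lower members, and antisense RNAs 3.12 in the 4 higher and -1.51 in the 17 lower. In the 8 lower pseudogenes the median was -1.13, and the 6 higher ones ranged from 1.01 to 1.72. An absolute log2 fold change over 2 was found in 28 members (31.8%), 21 lower and 7 higher, against 23.5% of coding genes and 24.8% of all listed genes, with no test. Fold changes of members with a library at or near 0 depend on the pseudocount. With 0.1 in place of 1, the log2 fold change went from -4.32 to -6.66 in 2010001K21Rik, from -3.42 to -5.68 in Gm28979, from -3.28 to -4.77 in Gm10635 and from -2.80 to -4.09 in Gm14890. In the same way Gm22574 went from -2.66 to -3.89, AC105304.1 from 3.49 to 5.77, Gm13054 from 4.36 to 5.74 and Gm45137 from 3.09 to 5.29. The sizes for these 8 members are therefore no fixed values, and all 8 stayed under an adjusted p of 0.05 (limma). Non-coding genes had a median mean of 46.1 normalized reads against 138 in coding genes. Below a mean of 50, 71.7% of 46 members and 47.5% of 120 coding genes were lower. From 50 to 200 these shares were 81.8% of 33 and 54.2% of 190, and from 200 up 77.8% of 9 and 45.4% of 218. The median absolute log2 fold change was 2.08 in both kinds of gene below 50. It was 1.20 in non-coding and 1.39 in coding genes from 50 to 200, and 1.31 and 1.26 from 200 up. Per kb of exon the median was 34.8 normalized reads in non-coding and 34.3 in coding genes.

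The share of lower members was also counted by position, with no test. By GENCODE M21 gene models (GRCm38), 38 members overlap a protein-coding gene, and 30 of these (78.9%) were lower. Of 20 that lie within 10 kb of one without touching it, 19 were lower, the exception being the TEC gene Gm43682. Of 30 farther away 18 (60.0%) were lower. Over all 617 listed genes 53.0% were lower. Under median-ratio scaling 4933413J09Rik, Gm31013, Gm16418, Gm8121, H3f3a-ps1 and Rps18-ps3 of the farther members lost their call. As many lower as higher calls were then left among the farther members. Lower members in the other positions lost calls there as well. In 30 members an exon shares bases with an exon on the opposite strand, and 18 share at least 100 bases at 95% identity with a gene elsewhere. Strand-specific counting is not stated in the sources, so reads of such members cannot be told apart from those of the partner or copy. In the 43 members with neither feature, 35 (81.4%) were lower and 8 higher. Some of the 43 lie within a coding gene on its own strand, such as Gm22574 in Cox7c and Mir208b in Myh7. Intron reads of that coding gene cannot be told apart from theirs.

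The 67 lower members summed to 9385, 8793 and 8460 normalized reads in the sham libraries and to 2831, 3383 and 4018 in the PAB libraries, a 2.60-fold lower mean. Atcayos held the largest part of the sham sum, 10.6%, and Gm47547 that of the PAB sum, 11.6%, ahead of Atcayos with 10.2%. The 21 higher members summed to 648, 588 and 692 in sham and to 2339, 1999 and 2125 in PAB, a 3.35-fold higher mean. There Gm5532 held the largest part of the sham sum, 25.2%, and 4833412C05Rik that of the PAB sum, 21.9%, against 6.30% in sham. Gm47547 and Gm5532 were chosen after their values were seen. Gm47547 shares a stretch of 2707 bases with Gm8113 at 95% identity or more, so its reads cannot be told apart from those of that gene. The members were split by their own direction, so the direction of each sum was fixed. Under median-ratio scaling the log2 ratio of the sums went from -1.38 to -0.80 in lower and from 1.74 to 2.34 in higher members. In the lower members PAB replicate 1 stood farthest from sham and PAB replicate 3 nearest, and in the higher members replicate 1 was farthest and replicate 2 nearest. Of the 67 lower members, replicate 1 was the lowest PAB library in 38 and replicate 3 the highest in 39, and of the 21 higher members replicate 1 was the highest in 11, while the lowest was replicate 1 in 6, replicate 2 in 7 and replicate 3 in 8.

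Among lincRNAs the clearest increase was in 4833412C05Rik (chr7:67784538-67804139, minus strand), a gene of 5 exons that lies 21626 bases from the nearest coding gene, Ttc23. Its normalized reads were 47.3, 36.5 and 37.8 in the sham libraries and 400.4, 431 and 583 in the PAB libraries. Every PAB library was thus above every sham library by a wide margin, with a mean of 40.5 ± 5.91 (SD, n = 3) against 472 ± 97.8 (SD, n = 3), 11.6-fold higher. Its log2 fold change was 3.50 with an SE of 0.27 (limma, adjusted p = 1.61e-05), the smallest adjusted p of the 88 members. AC105304.1 gave 0, 0 and 2.10 in sham and 26.6, 5.95 and 21.9 in PAB. Over the groups these are 2 reads in sham and 53 in PAB, a ratio of 27.6 (95% interval 7.28 to 234), which covers counting error only, as do the other intervals of read ratios. Without PAB replicate 2 its log2 fold change went from 3.49 to 4.11 (limma). Gm39465, a long transcript with 9813 exonic bases, was at 4.73, 4.68 and 4.20 in sham and 32.0, 22.8 and 15.9 in PAB. The 3 sham values lay close together and all 3 PAB values were above them (log2 fold change 2.10; limma, adjusted p = 0.00353).

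The lincRNAs with the largest decreases were at low levels in PAB. Gm19277 had 84.2, 56.1 and 115 in sham and 6.39, 11.9 and 1.99 in PAB, a 12.6-fold lower mean and a difference of -3.65 on the log2 scale (adjusted p = 0.000623 in limma). In Gm28979 the values were 23.6, 15.0 and 11.5 in sham and 0, 0 and 2.98 in PAB. Gm10635 was measured at 23.6, 14.0 and 13.6 in sham and 0, 0.992 and 1.99 in PAB. Gm28979 and Gm10635 each rest on 3 reads over the PAB libraries, and the ratio of reads, sham over PAB, was 16.6 (95% interval 5.38 to 83.2) for Gm28979 and 16.9 (95% interval 5.49 to 84.8) for Gm10635, both intervals leaving out the spread between libraries. Without PAB replicate 3 the log2 fold change of Gm28979 went from -3.42 to -4.09. Gm10635 lies 79689 bases from Col12a1, a fibril-associated collagen gene on the same strand that was higher in PAB and was chosen after its values were seen (190.1, 238 and 273 in sham and 2419.7, 1053 and 499 in PAB). At the other end of the scale, Gm44386 was among the 5 members with the highest level per kb over the 6 libraries, at 686 normalized reads per kb in sham and 293 in PAB, and fell from 294 ± 30.6 to 126 ± 57.8 normalized reads (SD, n = 3; limma, adjusted p = 0.00393). Another lincRNA, 2310040G24Rik, named after its values were seen, lies 25664 bases away on the same strand and was lower as well, with a log2 fold change of -1.69. Gm44386 no longer passed under median-ratio scaling.

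The lincRNAs Gm43050, Gm34030 and 9330158H04Rik are described with the heart gene nearest to each. Gm34030 and 9330158H04Rik were chosen for that position after their values were seen. Such positions were neither counted over the 33 lincRNAs nor tested. Gm43050 (chr5:119828448-119831920) lies 748 bases from Tbx5, a transcription factor of the developing heart, on the opposite strand. Its values were 53.0, 48.6 and 55.6 in sham and 7.46, 3.97 and 27.8 in PAB, and PAB replicate 3 was nearer to sham than the others. Without it the log2 fold change was -3.04. Tbx5 itself gave 151, 166 and 261 in sham and 101, 62.5 and 70.5 in PAB, so both fell, by 2.32 and 1.28 on the log2 scale (limma, adjusted p = 0.00419 and 0.00363). Gm34030 lies 7059 bases from Hand2, another cardiac transcription factor, and fell from 207 ± 24.7 to 83.5 ± 7.33 (SD, n = 3). Of its 1324 exonic bases 985 overlap exons of 5033428I22Rik on the opposite strand. The lincRNA 9330158H04Rik crosses Chrm2, the gene of the muscarinic receptor of the heart, and shares 142 exonic bases with it. This lincRNA fell from 108 ± 31.5 to 27.1 ± 9.25 (SD, n = 3; log2 fold change -1.97). Lsmem2, chosen after its values were seen because it is a lincRNA in the table but a protein-coding gene in RefSeq, had 102, 88.8 and 116 in sham and 57.5, 56.5 and 36.8 in PAB, and its call ended under median-ratio scaling. Hand2 and Chrm2 were not analysed here.

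Of the antisense RNAs, Gm13054 and 5830418P13Rik increased most. Gm13054 (chr4:148001091-148004014, minus strand) runs against Nppa, the gene of atrial natriuretic peptide and a marker of the loaded ventricle. Its normalized reads were 0, 2.81 and 2.10 in the sham libraries and 98.0, 31.7 and 30.8 in the PAB libraries. Nppa gave 238, 193 and 192 in sham and 21964, 9218 and 4995 in PAB. In both genes PAB replicate 1 was far above the other PAB libraries, and no PAB value overlapped a sham value. The log2 fold changes were 4.36 for Gm13054 (limma, adjusted p = 0.000682) and 5.60 for Nppa (limma, adjusted p = 1.62e-05), and 532 of the 820 exonic bases of Gm13054 are shared with Nppa. Without sham replicate 1, the one at 0, that of Gm13054 was 3.77. Nppb, the brain natriuretic peptide gene 13886 bases from Gm13054, chosen after its values were seen, was higher too, with a log2 fold change of 2.43. 5830418P13Rik, which runs against Bfsp2 and shares 201 exonic bases with it, went from 2.23 ± 1.38 to 61.4 ± 13.0 (SD, n = 3), which is 4.34 on the log2 scale (adjusted p = 0.000182 in limma). Its PAB values were 53.3, 76.4 and 54.6, so no PAB library stood apart. AC165271.1, opposite to the potassium channel gene Kcnj6, was 3.74-fold higher and shares 380 of its 1200 exonic bases with that gene.

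Atcayos behaved in the other way from its partner. This antisense RNA (chr10:81194609-81210877, plus strand) overlaps 270 exonic bases of Nmrk2, a nicotinamide riboside kinase of muscle that makes a precursor of NAD, and also crosses Atcay. In all, 702 of its exonic bases overlap exons of Atcay or Nmrk2. Its values were 961, 751 and 1122 in sham and 295, 348 and 402 in PAB. Nmrk2 was at 866, 746 and 555 in sham and 10869.5, 11692 and 7651 in PAB. The groups did not overlap in either gene, and the directions were opposite, with log2 fold changes of -1.43 for Atcayos (limma, adjusted p = 0.000909) and 3.80 for Nmrk2 (limma, adjusted p = 1.2e-05). Nmrk2 had more reads than Atcayos in every PAB library, and reads in the shared bases cannot be told apart. Atcay was not analysed here.

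**Figure D2:**
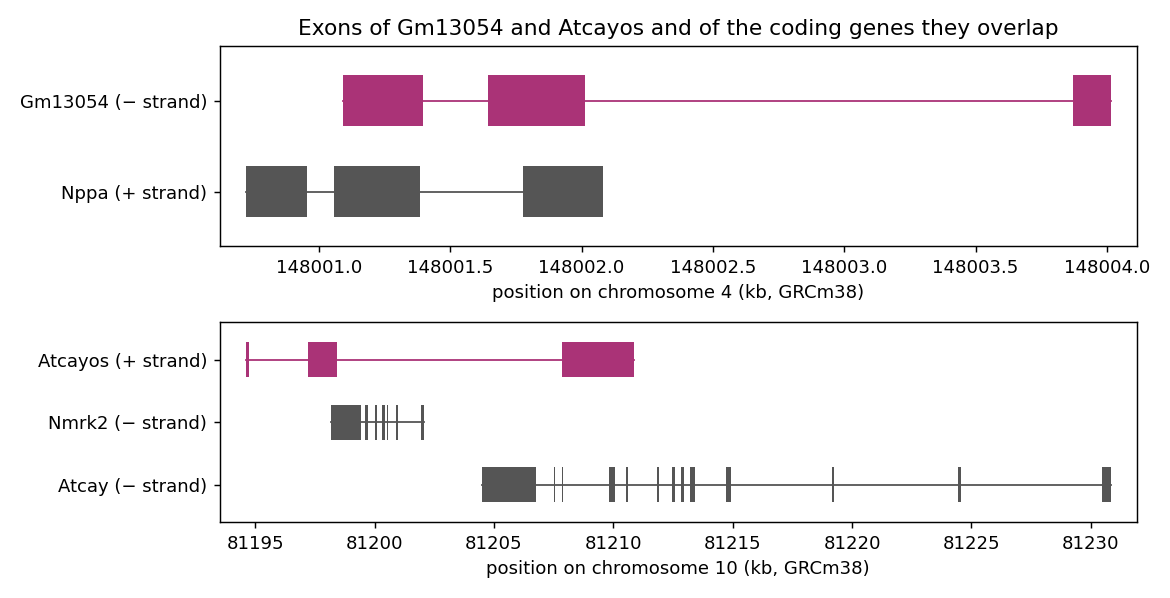
Exons (boxes) and introns (lines) of Gm13054 with Nppa on chromosome 4 and of Atcayos with Nmrk2 and Atcay on chromosome 10, by GENCODE M21, with the position in kb of GRCm38 on the x axis and 1 gene per line. The first and second exons of Gm13054 from the left lie over Nppa exons (532 shared bases), and the middle exon of Atcayos reaches 270 bases into the last Nmrk2 exon.

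In all, 8 members overlap or lie within 10000 bases of another listed gene, giving 8 pairs, 6 of them with the same direction. Beside the pairs above, Gm4524 and P3h2, which modifies proline in collagens, were both higher, and share 1055 exonic bases. Gm4524 had 10.4, 20.6 and 12.6 in sham and 57.5, 47.6 and 34.8 in PAB, and P3h2 had 48.2, 33.7 and 52.4 in sham and 502, 276 and 141 in PAB. Gm17552 and Carns1, the carnosine synthase gene, were both lower, with log2 fold changes of -1.11 and -1.57 and 1825 shared bases. Without sham replicate 1 the adjusted p of Gm17552 was 0.0619 in limma, and over the alternatives it ranged from 0.00627 to 0.165. The sense intronic RNA Gm47644 lies within Cep85l and shares 1644 exonic bases with Pln, which encodes phospholamban, the inhibitor of the calcium pump of the sarcoplasmic reticulum. Gm47644 was at 145, 151 and 200.3 in sham and 75.6, 54.5 and 86.4 in PAB and Pln at 21385, 21925 and 27039 in sham and 9037, 10319 and 12438 in PAB, with near-equal log2 fold changes of -1.20 and -1.15. Gm17552 and Gm47644 lost their call under median-ratio scaling. Gm26672 was lower and the protocadherin gene Pcdhga6 across from it higher (-1.70 and 2.50), with no shared exonic bases between this pair and 5187 shared with other protocadherin genes. Pcdhga6 was highest in PAB replicate 1, at 69.2 normalized reads against 20.8 and 11.9 in the other PAB libraries, and its groups overlapped. The same-direction pairs of Gm13054, Gm4524, Gm17552 and Gm47644 share exonic bases, so reads there cannot be told apart between member and partner. Within 100000 bases there were 21 pairs for 19 members, 15 with the same direction. Every listed gene was called higher or lower, and such a share was not counted for other pairs of listed genes. Joint regulation of neighbours was not tested.

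**Figure D3:**
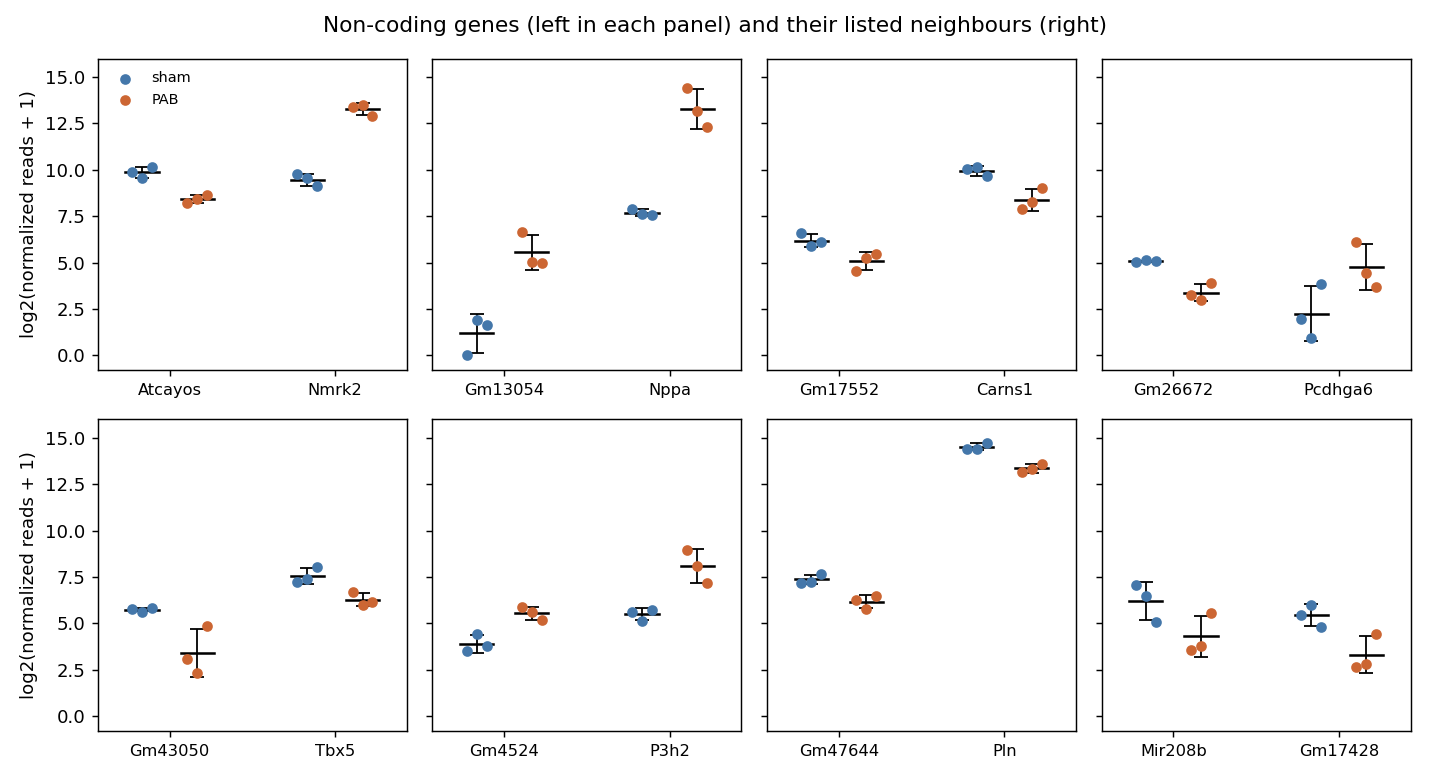
Per-library levels, as log2(normalized reads + 1) on the y axis, of the 8 non-coding genes with a listed gene within 10000 bases (left in each panel) and of that gene (right); points are libraries, blue for sham and orange for PAB, and bars are the mean and SD of 3 libraries. Both genes of a pair move the same way in 6 panels, and opposite ways for Atcayos with Nmrk2 and for Gm26672 with Pcdhga6.

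Most antisense RNAs were lower. Gm43136, across from Chfr, had the largest decrease, with 26.5, 15.0 and 18.9 in sham and 2.13, 0.992 and 1.99 in PAB and a difference of -2.96 on the log2 scale (adjusted p = 0.00177 in limma). Gm19461 (opposite Plekha6, 620 shared exonic bases) and Gm48882 (opposite Cradd, 149 shared exonic bases) were 4.24-fold and 3.97-fold lower. Without PAB replicate 2 the log2 fold change of Gm48882 went from -2.15 to -1.52. Gm11716, across from Pitpnc1, had the highest level per kb of the class, 756 normalized reads per kb in sham and 329 in PAB, and was 2.30-fold lower. A930016O22Rik, Irx3os and Gm11266 were chosen for the coding gene that each lies at, after their values were seen. Such positions were neither counted over the 21 antisense RNAs nor tested. A930016O22Rik, across from the muscle creatine kinase gene Ckm, gave 59.6, 55.2 and 45.1 in sham and 13.8, 14.9 and 19.9 in PAB. It shares 451 of its 2560 exonic bases with Ckm, and reads there cannot be told apart. Every PAB library was below every sham library, and the adjusted p was 0.00214 in limma. Irx3os, which overlaps the transcription factor gene Irx3, had a log2 fold change of -1.47, and its adjusted p went from 0.0125 to 0.0630 in limma when sham replicate 1 was left out, with a range of 0.00296 to 0.0860 over the alternatives. Gm11266, within Nfib, was 2.04-fold lower. Irx3os and Gm11266 no longer passed under median-ratio scaling, and Ckm, Irx3 and Nfib were not analysed here.

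The 6 processed transcripts, non-coding RNAs with no finer class, were all lower. The largest decrease of any member was in 2010001K21Rik, with 32.2, 24.3 and 27.3 in sham and 0, 0 and 1.99 in PAB. Only 2 reads fell in the PAB libraries, both in replicate 3, against 86 in sham, a ratio of 41.2 (95% interval 11.1 to 346), which covers counting error only. Of the 3630 exonic bases of 2010001K21Rik, 1292 overlap exons of Gm5790 on the opposite strand. It also shares a stretch of 455 bases with Coro1c at 95% identity or more. BB218582 fell from 114 ± 9.83 to 23.2 ± 16.3 normalized reads (SD, n = 3) and lies 42905 bases from Mpped2, which was lower as well (-2.46 and -1.60 on the log2 scale). Both Mpped2 and Gdf6 were chosen after their values were seen. 4930412C18Rik was lower (-2.15) while Gdf6, a bone morphogenetic protein gene 20961 bases away, was higher (1.99). Gdf6 had 53.9, 49.6 and 92.3 in sham and 576, 206 and 134 in PAB, so PAB replicate 1 stood apart. B430212C06Rik and 1110018N20Rik had the smallest changes of the class, -1.24 and -1.27, and neither passed under median-ratio scaling.

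In the bidirectional promoter class, 3 RNAs behaved alike. 0610009L18Rik, 136 bases from the gamma actin gene Actg1, had 152, 159.9 and 163 in sham and 68.2, 60.5 and 75.5 in PAB. Gm16793, at Mfhas1, was 2.20-fold lower, and 2610306M01Rik, 77 bases from Aak1, 2.17-fold lower. Both of these lost their call under median-ratio scaling. E230013L22Rik, at Rab20, differed from them. It had 62.4, 82.3 and 69.2 in sham and 337, 184 and 76.5 in PAB, so PAB replicate 3 lay below the highest sham library and replicate 1 carried the mean. Its adjusted p of 0.0220 in limma became 0.0676, 0.0556, 0.0609 and 0.0691 without sham replicate 1, sham replicate 3, PAB replicate 1 and PAB replicate 2, and the lowest over the alternatives was 0.000354. The other sense intronic RNA, Gm29093 within Abhd17a, was at 8.51, 3.74 and 11.5 in sham and 45.8, 12.9 and 37.7 in PAB (log2 fold change 1.83; limma, adjusted p = 0.0123).

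Among the TEC genes, Gm45137 and Gm43682 were higher. Gm45137 had 0, 4.68 and 0 in sham and 14.9, 7.93 and 23.8 in PAB, which are 5 reads over the sham libraries, all in replicate 2. Without that library the log2 fold change went from 3.09 to 3.93. Gm43682 gave 20.8, 21.5 and 13.6 in sham and 43.7, 46.6 and 44.7 in PAB, with the PAB libraries within a narrow range. Of the lower ones, Gm37015 (within Kcng2) and 8430422M14Rik had log2 fold changes of -2.27 and -2.25, and Gm37691, within Lamb3, was 2.39-fold lower and did not pass under median-ratio scaling. 8430422M14Rik had 54.9, 68.3 and 50.3 in sham and 5.33, 7.93 and 31.8 in PAB, and without PAB replicate 3, which stood apart, its log2 fold change was -2.96. Gm22574 is of another kind. It has 60 bases, lies in an intron of Cox7c on the same strand, and is a snoRNA in RefSeq. Small nucleolar RNAs of the C/D type guide the methylation of ribosomal RNA and carry a C box near the start and a D box near the end. Its normalized reads were 15.1, 19.6 and 19.9 in sham and 0, 5.95 and 2.98 in PAB (log2 fold change -2.66; limma, adjusted p = 0.00690). The log2 fold change was -1.86 without PAB replicate 1 and -3.26 without PAB replicate 2. The sequence is shown because it holds the letters of both boxes, TGATGA at bases 8 to 13 and CTGA at bases 53 to 56, each once and given in capitals (chr13:86044989-86045048, minus strand, GRCm38, GENCODE M21 transcript):
Gm22574: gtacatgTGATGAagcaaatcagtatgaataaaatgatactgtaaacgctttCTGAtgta

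The 14 pseudogenes were compared with coding transcripts, since a read from a near-identical parent can be counted at the copy. Each had a coding match, the closest being Pgk1-rs7 with Pgk1 (100% identity over 1255 bases), Gm10222 with the mitochondrial mt-Nd4l (100% over 294) and Gm12070 with Gapdh (99.9% over 1002). The parents were not analysed here, so the values are uncertain as levels of the copies. Copies of the glycolytic genes Gapdh and Pgk1 were higher in PAB. Gm12070 had 71.9, 50.5 and 92.3 in sham and 173, 113 and 167 in PAB, and Pgk1-rs7 had 12.3, 13.1 and 17.8 in sham and 49.0, 34.7 and 42.7 in PAB. Neither showed overlap between groups, with log2 fold changes of 1.08 and 1.49 (limma, adjusted p = 0.00728 and 0.00416). Also higher were Gm18588, a copy of the lipid transfer gene Osbpl9 (1.72), Gm14121, a copy of Btbd1 (1.17), and AA414768 (1.01), which RefSeq lists as protein coding and which was chosen after its values were seen. Gm10222 was at 91.7, 43.0 and 73.4 in sham and 146, 75.4 and 295 in PAB. Its groups overlapped, PAB replicate 3 carried the mean, and the adjusted p of 0.0341 in limma became 0.143, 0.0599 and 0.126 without sham replicate 2, sham replicate 3 and PAB replicate 3. Without the trend in limma the adjusted p was 0.0578, and the lowest over the alternatives was 0.00747.

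The 8 lower pseudogenes copy genes of varied function. Gm16418, a copy of Uqcr11, a subunit of respiratory complex III, had the highest level per kb of all 88 members in either group, 1344 normalized reads per kb in sham and 653 in PAB, and gave 269, 230.1 and 191 in sham and 80.9, 102 and 152 in PAB. H3f3a-ps1, a copy of the histone H3.3 gene H3f3a, gave 154, 103 and 113 in sham and 51.1, 57.5 and 53.6 in PAB. Rps18-ps3, from the ribosomal protein gene Rps18, gave 109.7, 75.7 and 64.0 in sham and 34.1, 37.7 and 39.7 in PAB. All PAB values were below all sham values in these genes, by 2.06-fold, 2.28-fold and 2.24-fold. Tmem181b-ps, related to Tmem181a, fell from 397 ± 111 to 198 ± 45.1 (SD, n = 3). Gm8121, a copy of Immp1l chosen after its values were seen, was 2.06-fold lower. None of these 5 passed under median-ratio scaling. The steepest decreases were in Gm14890 (-2.80), whose best match is the mitochondrial histidyl-tRNA synthetase gene Hars2, in Gm14267 (-2.65), which matches the cyclophilin gene Ppia, and in Gm6445 (-2.63). Their identities were lower, 89.4%, 93.4% and 89.3%. Gm14890 was at -2.19 without PAB replicate 2 and Gm14267 at -2.04 without PAB replicate 1.

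How little separates copy and parent is seen in the sequences, taken from GENCODE M21 transcripts. Over 171 bases Gm16418 (chr1:166431705-166431875, minus strand, GRCm38) and Uqcr11 differ at 2 positions, C87T and G116A, counted from 1 at the first base shown with the Uqcr11 base first. Differing bases are in capitals:
Gm16418: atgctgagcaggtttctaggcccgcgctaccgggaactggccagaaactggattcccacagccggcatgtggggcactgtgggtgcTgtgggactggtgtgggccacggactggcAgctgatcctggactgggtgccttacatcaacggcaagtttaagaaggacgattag
Uqcr11: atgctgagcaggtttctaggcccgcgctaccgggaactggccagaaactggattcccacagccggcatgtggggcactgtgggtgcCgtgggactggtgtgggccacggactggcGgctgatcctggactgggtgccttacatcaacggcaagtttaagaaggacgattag
Gm12070 and the coding part of Gapdh differ at 1 of 1002 positions, G361A with the Gapdh base first. Bases 331 to 391 of the compared stretch are shown (chr11:26786963-26787023, plus strand, for Gm12070):
Gm12070: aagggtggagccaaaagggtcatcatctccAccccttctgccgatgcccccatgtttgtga
Gapdh: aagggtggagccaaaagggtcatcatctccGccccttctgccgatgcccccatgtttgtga

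The microRNA gene Mir208b (chr14:54975700-54975776, minus strand) lies within an intron of Myh7, the slow myosin heavy chain gene, and was lower in PAB. Its normalized reads were 133, 88.8 and 32.5 in the sham libraries and 10.7, 12.9 and 45.7 in the PAB libraries. PAB replicate 3 lay above sham replicate 3, so the groups overlapped, and the log2 fold change was -1.91 with an SE of 0.62 (limma, adjusted p = 0.0117). Without sham replicate 1 the adjusted p was 0.0613 in limma, under median-ratio scaling it was 0.0586, and the lowest over the alternatives was 0.00109, without PAB replicate 3, where the log2 fold change was -2.54. Gm17428, a listed gene 1157 bases away on the opposite strand, was lower as well, with 43.5, 62.7 and 27.3 in sham and 5.33, 5.95 and 20.9 in PAB. In both genes sham replicate 3 was the lowest sham library and PAB replicate 3 the highest PAB library. The values count reads over the 77-base hairpin gene, and the mature microRNA was not measured apart from it. Myh7 and the related genes Mir208a and Mir499 were not analysed here. The mature sequences (RefSeq, GRCm38.p6) are shown to compare the seeds, bases 2 to 8 and in capitals, of the 3 microRNAs hosted by myosin genes:
mmu-miR-208b-3p: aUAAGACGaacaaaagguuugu
mmu-miR-208a-3p: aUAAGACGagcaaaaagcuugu
mmu-miR-499-5p: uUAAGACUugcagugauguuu
The seeds of miR-208b and miR-208a are the same, while miR-499 shares 6 of 7 seed bases. Mature miR-208b comes from chr14:54975710-54975731 (minus strand), and miR-208a differs from it at 3 positions over the whole 22 bases.

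The mitochondrial tRNA of glycine, mt-Tg, has 68 bases and lies directly between mt-Co3 and mt-Nd3. Its normalized reads were 74.7, 55.2 and 56.6 in sham and 23.4, 21.8 and 26.8 in PAB, with no overlap between groups and a 2.59-fold lower mean (limma, adjusted p = 0.00377), and it did not pass under median-ratio scaling. Mir208b and mt-Tg were also among the 5 highest members per kb over the 6 libraries, which for genes this short rests on few reads. Mir208b was at 1103 normalized reads per kb in sham and 299.7 in PAB, and mt-Tg at 914 and 353. In PAB alone Gm10222 and 4833412C05Rik took the places of Mir208b and Gm44386 among the 5.

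Of 60 symbols of non-coding RNAs known from the heart or from imprinted loci, some of them other names of the same RNA, 2 are listed. Gm13054 is described above. 5430431A17Rik was at 252, 267 and 148 in sham and 65.0, 116 and 120.2 in PAB, 2.21-fold lower (limma, adjusted p = 0.00764), and no longer passed under median-ratio scaling. The rest, H19, Meg3, Kcnq1ot1 and Malat1 among them, were not analysed here.

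Few marker genes of the cell types in the tissue are listed. Since every listed gene was called, a listed marker could only be a changed one, and the unlisted markers were not analysed. Of 7 cardiomyocyte markers only Pln is listed, of 9 fibroblast markers only Dpt, of 5 macrophage markers only C1qa, of 6 nerve markers only Dbh, and of 6 smooth muscle markers only Cnn1. Dpt had 4720.3, 4759 and 4649 normalized reads in sham and 1487, 2281 and 2511 in PAB. C1qa had 666, 700.4 and 643 in sham and 312, 270.7 and 347 in PAB. Dbh, which makes noradrenaline, had 122, 150.6 and 99.6 in sham and 8.52, 5.95 and 13.9 in PAB. These 3 genes were lower in every PAB library, and Cnn1 was higher, with 122, 105.7 and 122 in sham and 681, 289 and 372 in PAB. Pln, whose values are given above with Gm47644, was lower in every PAB library too. Of the atrial and skeletal muscle markers, Nppa and Acta1 are listed, 1 of 5 and 1 of 4. Acta1 had 2978, 2462 and 2917 in sham and 61076, 34096 and 44652 in PAB, higher in every PAB library as was Nppa. Nppa is also a marker of the loaded ventricle, as given above. With 1 listed marker each, other tissue cannot be told apart from a change within the RV cells. No marker of endothelium, erythroid cells, epicardium, adipocytes, lung, thymus or liver is listed. The part of cell composition in the changes of the non-coding genes was not tested.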

How the data were processed

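The data are 6 RNA-seq libraries of neonatal mouse RV, 3 of them sham and 3 PAB. The authors deposited 1 table of 617 genes, named FPKM, whose library values are a signal. The deposited low values, 160 to 215 per library, were 100% within 0.1 of whole multiples of 1 step whatever the gene length, so each is a read count over a size factor. The deposited table also holds, from the authors' own comparison, log2 fold changes, p-values and adjusted p-values, none of which were used. HISAT2 2.0.5, StringTie 1.3.3b, featureCounts 1.5.0-p3, GATK 3.7 and mm10 stand in the labels without roles. Strandedness and annotation release are not stated in the sources used here.

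PAB was compared with sham by limma 3.58.1 (R 4.3.3; lmFit, eBayes with trend) on log2(value + 1), keeping any gene whose mean reached 0.1, with Benjamini-Hochberg adjustment over all 617 genes and a threshold of 0.05. The fit was tested on simulated data. A test on read counts, planned as an alternative, was not run: read numbers were inferred from the deposited signal and used only for read totals at low values, their ratios and counting intervals. Alternatives were another pseudocount, filter, scaling or variance model, a replicate block, an unadjusted p and leaving out each library. Gene positions, overlaps and sequences came from GENCODE M21 (GRCm38) and RefSeq, and shared sequence from blastn 2.17.0. Python 3.11.15, numpy 2.4.6, pandas 2.3.3, scipy 1.17.1 and matplotlib 3.10.9 served for the rest.

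Named are the 3 largest and 3 smallest log2 fold changes of each biotype with at least 4 members, and every member of smaller biotypes. For this rule the processed, unprocessed and transcribed pseudogene biotypes were taken apart. Also named are the 5 highest per kb, members within 10000 bases of another listed gene, and those on a list of 60 symbols of known RNAs. The members and lists were chosen with earlier results of these data known.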

Additional observations from a re-analysis of the deposited data

How the results depend on the processing

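No member changed direction under any alternative, and under median-ratio scaling none could, since its shift of 0.59 (log2) is smaller than every member's change. Median-ratio scaling over the listed genes ended the call of 28 lower members, leaving 39 lower and 21 higher. The groups did not overlap in 74 members, 72 of them among the 84. Under it the median log2 fold change was 2.28 in higher and -0.96 in lower members. Over all members of a class, higher and lower together, it went from -1.51 to -0.94 in lincRNAs, from -1.46 to -0.87 in antisense RNAs and from -1.01 to -0.42 in pseudogenes, and the log2 ratios of summed reads were 2.34 and -0.80. All 617 listed genes were called in the main fit, so median-ratio scaling rested on no gene without a call. As it moved PAB toward higher, only lower calls stood to be lost. Which scaling is nearer to the RNA levels was not tested. Listed genes within 100000 bases were found for 19 members, and overlapping ones for 6, against 8 within 10000 bases.

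Leaving out 1 library at a time gave 19 to 20 higher and 63 to 67 lower members (limma), 84 to 86 without overlap, medians of 1.49 to 1.84 and -1.69 to -1.41, and summed log2 ratios of 1.68 to 1.80 and -1.52 to -1.26. The calls lost were those of E230013L22Rik, Gm10222, Gm15675, Gm17552, Irx3os and Mir208b, and the cause was not tested. Gm10222 was also lost without the trend in limma. The pseudocount of 0.1, both filters and the unadjusted p changed no member's call, but that pseudocount moved 8 named members with libraries at or near 0 by over 1.5 times, 2010001K21Rik most, from -4.32 to -6.66. Blocking on the replicate number called 21 higher and 67 lower. Libraries with the same number had correlations of -0.059, -0.055 and -0.199, and none correlated best with its own number. The test on read counts was not run. The table holds listed genes only, and 3 libraries per group limit the precision, most at low values.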

Other observations

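One listed gene, ENSMUSG00000058159, has no biotype and is outside the 88. It had 19.9, 21.5 and 13.6 normalized reads in sham and 0, 3.97 and 5.96 in PAB. It was lower in 3 of 3 PAB libraries, with a difference of -2.54 on the log2 scale (adjusted p = 0.00889 in limma).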
